A study of Mus musculus with 6 samples.

Results

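The 8 genes described here are *Abca1*, *Abcg1*, *Nr1h3*, *Nr1h2*, *Mylip*, *Lpcat3*, *Srebf1* and *Srebf2*. These comprise the liver X receptors (LXRs), genes that LXRs control and the genes of the sterol-regulated SREBPs. They are 8 of the 32371 gene identifiers in a table of RNA-Seq read counts, and all 8 were among the 18138 genes with enough counts to be tested. They were chosen by name with measured values of the GFP to Ezh2-Y726D comparison in view, because *Abca1* was among its most significant falls. The fold changes and calls of the 8 genes in that comparison are therefore a description, and no P value is attached to them.

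The libraries came from C57BL/6J mice that received AAV2-GFP or AAV2-Ezh2-Y726D in the vitreous, underwent optic nerve crush (ONC) 2 weeks later and were sampled 3 days after ONC. Ezh2 is the histone methyltransferase of the PRC2 complex, and Ezh2-Y726D is a mutant form that lacks methyltransferase activity, overexpressed here with GFP as control. Each group had 3 libraries, made from cells that FACS enriched as retinal ganglion cells (RGCs). Mice of both groups carried an AAV2 vector and a crushed nerve, so there was no uninjured or uninjected group, and the labels do not say how many animals made up a library. The study used adult mice of both sexes unless it says otherwise. Nothing says that the libraries of a group came from separate animals, so P values measure only the spread between these libraries. As a check of the labels, *Ezh2* read 22.7, 23.9 and 26.4 CPM (read counts scaled to a common library size) under GFP, and 65.2, 65.6 and 65.2 CPM under Ezh2-Y726D, with vector and endogenous transcripts counted together.

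LXRs are nuclear receptors that bind oxysterols, the oxidized derivatives of cholesterol, and pair with a retinoid X receptor on DNA. Active LXR raises transcription of the ABC transporters that load cellular cholesterol onto apolipoprotein particles, and of proteins that limit cholesterol uptake. SREBPs work in the other direction, since low sterol in the endoplasmic reticulum releases SREBP2 to the nucleus, where it raises the genes of cholesterol synthesis and uptake. In retina and brain, glia supply neurons with cholesterol in ApoE particles, and phagocytes that have engulfed lipid-rich debris depend on LXR and ABCA1 to export it.

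Depth differed among libraries. The totals ran from 9333244 to 23782520 counts, and 1 gene, the ribosomal RNA gene CT010467.1, took 50.9% and 52.2% of the counts of GFP libraries 2 and 3 against 2.55% to 16.1% in the other libraries. Without it, the libraries held 4460732 to 22024582 counts. All values below are CPM of libraries scaled by TMM factors, which ran from 0.647 to 1.31. Marker genes of other retinal cells were abundant: the summed level of 7 rod markers was 5600 to 6350 CPM over the 6 libraries and that of 8 Müller glia markers 6620 to 6920 CPM, against 488 to 531 CPM for 12 RGC markers. The libraries therefore held RNA of several cell types, and in such bulk samples fewer cells of a type and less RNA per cell cannot be told apart.

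Promoter sequences are shown for the receptor gene *Nr1h3*, for *Abca1* and *Mylip*, and for *Srebf2*, the only one of the 8 genes called higher, so that the genes that moved can be compared at their starts. Each is a RefSeq window on GRCm38.p6 from 250 bases before to 50 bases after the annotated start, written 5′ to 3′ on the strand of the gene. The *Nr1h3* window is chr2:91195067-91195366 on the minus strand, that of *Abca1* chr4:53159846-53160145 on the minus strand, that of *Mylip* chr13:45389492-45389791 on the plus strand and that of *Srebf2* chr15:82147019-82147318 on the plus strand. Capitals mark GC boxes (GGGCGG), E-boxes (CACGTG) and CCAAT boxes (CCAAT), on either strand.
Nr1h3: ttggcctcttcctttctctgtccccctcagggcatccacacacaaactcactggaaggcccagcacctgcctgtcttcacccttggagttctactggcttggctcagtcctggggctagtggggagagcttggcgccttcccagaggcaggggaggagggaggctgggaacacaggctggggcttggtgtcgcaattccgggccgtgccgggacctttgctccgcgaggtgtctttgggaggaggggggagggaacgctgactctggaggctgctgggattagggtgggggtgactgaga
Abca1: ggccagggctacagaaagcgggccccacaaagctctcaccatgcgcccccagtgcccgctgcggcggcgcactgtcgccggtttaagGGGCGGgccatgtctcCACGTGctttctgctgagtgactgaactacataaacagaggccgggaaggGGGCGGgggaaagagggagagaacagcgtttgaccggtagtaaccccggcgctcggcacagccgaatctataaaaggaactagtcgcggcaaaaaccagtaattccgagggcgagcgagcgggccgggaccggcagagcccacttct
Mylip: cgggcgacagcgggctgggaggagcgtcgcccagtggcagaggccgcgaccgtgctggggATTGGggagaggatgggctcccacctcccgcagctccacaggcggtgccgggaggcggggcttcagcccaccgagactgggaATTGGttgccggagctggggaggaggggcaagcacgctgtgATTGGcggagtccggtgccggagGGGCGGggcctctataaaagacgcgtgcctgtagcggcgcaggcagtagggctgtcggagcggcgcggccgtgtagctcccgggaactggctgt
Srebf2: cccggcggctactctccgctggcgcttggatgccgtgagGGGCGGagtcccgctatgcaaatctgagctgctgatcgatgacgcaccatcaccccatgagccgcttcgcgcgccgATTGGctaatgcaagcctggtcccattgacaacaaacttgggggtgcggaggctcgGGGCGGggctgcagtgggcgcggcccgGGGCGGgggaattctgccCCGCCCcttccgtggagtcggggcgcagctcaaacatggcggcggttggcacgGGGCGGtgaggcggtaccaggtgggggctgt
The tables used here held 10 windows for 7 of the genes, and *Abcg1* was not among them. The exact letters AGGTCA, the consensus half-site of nuclear receptors such as LXR, were found on either strand in 0 of the 10 windows, against 16.3% of 32851 windows of all genes, and their exact direct repeat with 4 bases between was found in 0 of the 10, against 0.0152% of all windows. An E-box, the letters that SREBPs and other basic helix-loop-helix proteins can bind, was found in the *Abca1* window alone, with its first base 147 bases before the start (chr4:53160037-53160042). Of all windows, 7.15% held one. GC boxes lay in 6 of the 10 windows, of *Abca1*, *Lpcat3*, *Mylip*, *Srebf1* and *Srebf2* (35.7% of all windows). CCAAT boxes lay in 5 of the 10, of *Lpcat3*, *Mylip*, *Srebf1* and *Srebf2* (37.4% of all windows). The *Mylip* window held 3 CCAAT boxes and 1 GC box, the *Srebf2* window 1 CCAAT box and 5 GC boxes, and both *Nr1h3* windows held none of the letters searched. A match describes letters in a window and is not a binding site. Natural LXR elements, among them the known one of the *Abca1* promoter, often depart from the consensus letters, and such variants were not searched, nor were sites elsewhere in these genes, so these counts do not say that the windows lack LXR elements.

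In the Ezh2-Y726D libraries, 4 of the 8 genes were called lower, namely *Abca1*, *Nr1h3*, *Abcg1* and *Mylip*, 1 gene, *Srebf2*, was called higher, and *Nr1h2*, *Lpcat3* and *Srebf1* were not called. A call means an adjusted P value under 0.05 in edgeR's quasi-likelihood test over all genes. Over all 18138 genes tested, 13.6% were called lower and 13.9% higher. *Abca1* and *Nr1h3* also passed the fold change of 1.5 that defines a DEG, as did 5.50% of all genes in the lower direction and 2.52% in the higher direction. Because the genes were chosen on this comparison, nothing is read from these shares. The median log2 fold change of the 8 genes was -0.27.

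**Figure D1:**
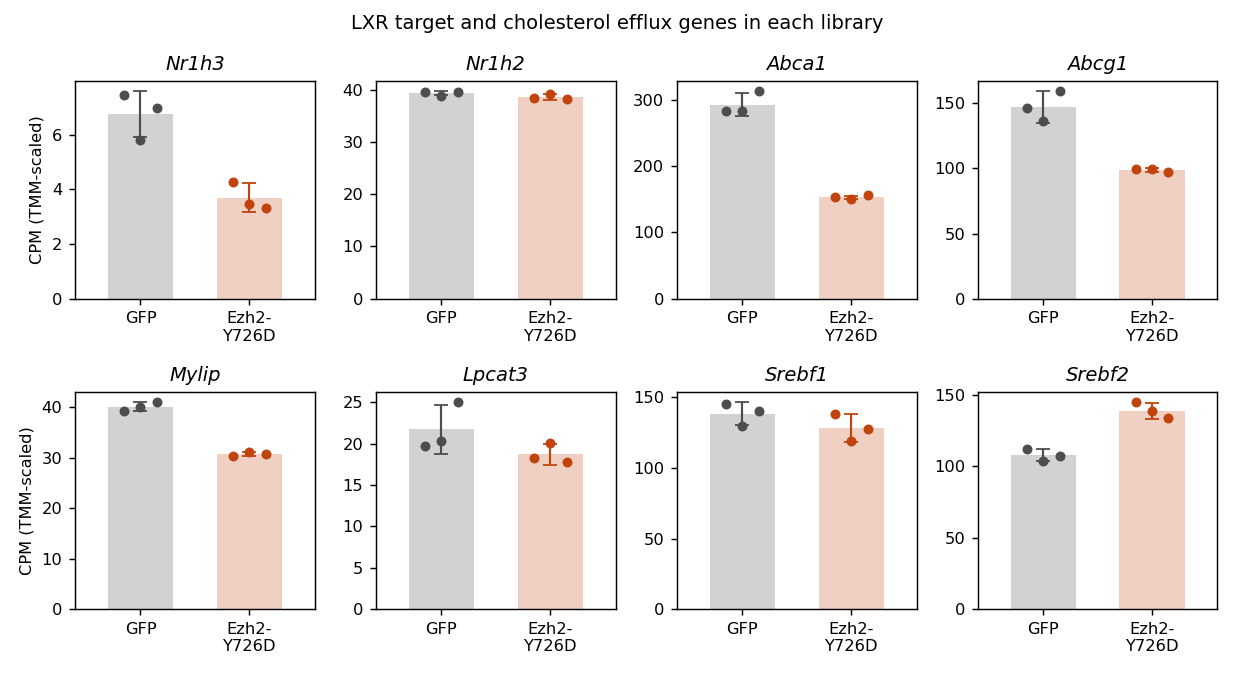
Levels of the 8 genes in each library, in CPM of the TMM-scaled library, with 1 panel per gene and each vertical axis starting at 0; points are libraries, and bars are the group mean with its SD (n = 3). In *Abca1*, *Abcg1*, *Nr1h3* and *Mylip* every Ezh2-Y726D point lies under every GFP point, in *Srebf2* every Ezh2-Y726D point lies above, and in *Nr1h2*, *Lpcat3* and *Srebf1* the groups overlap.

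The 2 LXR genes were measured first. *Nr1h3* encodes LXRα, the receptor of macrophages and liver, whose gene is itself an LXR target. It lies at chr2:91184061-91202834 on the minus strand (ENSMUSG00000002108). Its levels under GFP were 7.44, 5.80 and 6.97 CPM, and under Ezh2-Y726D 4.28, 3.48 and 3.32 CPM. All Ezh2-Y726D libraries were below all GFP libraries. The mean went from 6.74 ± 0.84 to 3.70 ± 0.517 CPM (SD, n = 3 each), a fitted log2 fold change of -0.91 ± 0.14 (SE), or 0.531-fold. This was the least expressed of the 8 genes, and GFP libraries 2 and 3 held only 45 and 42 reads of it, against 212 in GFP library 1. Its SE was the widest of the 8.

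*Nr1h2* encodes LXRβ, the more broadly expressed receptor and the main one of the nervous system, and lies at chr7:44549616-44553951 on the minus strand (ENSMUSG00000060601). Its levels were 39.5, 38.8 and 39.5 CPM under GFP and 38.4, 39.2 and 38.2 CPM under Ezh2-Y726D. The groups overlapped, and the 6 libraries were closer to each other than for any other of the 8 genes, with a coefficient of variation of 0.974% in the GFP and 1.35% in the Ezh2-Y726D group. The log2 fold change was -0.03 ± 0.057 (SE). Within each library, the ratio of *Nr1h3* to *Nr1h2* per kilobase of exon, which does not depend on how libraries are scaled, was 0.251, 0.199 and 0.235 under GFP and 0.149, 0.118 and 0.116 under Ezh2-Y726D. LXRβ transcripts thus exceeded those of LXRα in every library, and the ratio was lower in every Ezh2-Y726D library.

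*Abca1* encodes the transporter that moves cholesterol and phospholipid onto lipid-poor apolipoproteins, the first step of efflux. The gene spans chr4:53030787-53159895 on the minus strand (ENSMUSG00000015243), and its exons overlap no other annotated gene. Under GFP it was at 283, 283 and 313 CPM, and under Ezh2-Y726D at 154, 151 and 156 CPM, from 1885 to 8077 reads per library. The Ezh2-Y726D libraries lay close together, all under the lowest GFP library. The mean went from 293 ± 17.0 to 153 ± 2.36 CPM, a log2 fold change of -0.93 ± 0.042 (SE), or 0.526-fold.

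*Abcg1*, which passes cholesterol on to lipidated particles such as HDL, lies at chr17:31057675-31117988 on the plus strand (ENSMUSG00000024030). It was at 146, 136 and 159 CPM under GFP and at 99.4, 99.8 and 97.3 CPM under Ezh2-Y726D. These groups did not overlap either, and the spread among GFP libraries was the wider one. The mean went from 147 ± 12 to 98.8 ± 1.33 CPM, a log2 fold change of -0.57 ± 0.046 (SE), or 0.675-fold, which fell just short of the fold change that defines a DEG. The difference in log2 was larger for *Abca1* than for *Abcg1* in this description: their ratio per kilobase within a library was 1.37, 1.47 and 1.38 under GFP and 1.09, 1.07 and 1.13 under Ezh2-Y726D, again without overlap.

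*Mylip* and *Lpcat3* are LXR targets outside efflux. *Mylip* encodes IDOL, a ubiquitin ligase that limits lipoprotein uptake, and lies at chr13:45389742-45412022 on the plus strand (ENSMUSG00000038175). It was at 39.2, 40.1 and 41.0 CPM under GFP and at 30.3, 31.1 and 30.8 CPM under Ezh2-Y726D. Both groups were tight and they did not overlap. The mean went from 40.1 ± 0.874 to 30.7 ± 0.375 CPM, a log2 fold change of -0.37 ± 0.058 (SE), whose sign turned to 0.13, without a call, when libraries were scaled by their total counts. *Lpcat3*, which attaches polyunsaturated chains to membrane phospholipids, lies at chr6:124663027-124704418 on the plus strand (ENSMUSG00000004270).

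The levels of *Lpcat3* were 19.7, 20.3 and 25 CPM under GFP and 18.2, 20.1 and 17.8 CPM under Ezh2-Y726D. One GFP library, number 3, stood above the other 5, which overlapped. The log2 fold change was -0.16 ± 0.082 (SE) and was not called. Of its exon bases, 10.2% overlap the antisense gene *Emg1*, and how strand entered the counting is not given in the sources used here.

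Of the SREBP genes, *Srebf2* was called and *Srebf1* was not. *Srebf1* encodes SREBP1, which drives fatty acid synthesis and whose SREBP1c form is an LXR target. It lies at chr11:60199089-60222581 on the minus strand (ENSMUSG00000020538). Its levels were 145, 129 and 140 CPM under GFP and 138, 119 and 127 CPM under Ezh2-Y726D. The groups overlapped, with means of 138 ± 8.19 and 128 ± 9.67 CPM, and the log2 fold change was -0.12 ± 0.05 (SE). The table counts the gene as a whole, so the SREBP1a and SREBP1c transcripts were not separated.

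*Srebf2* encodes SREBP2, the main activator of cholesterol synthesis genes, and lies at chr15:82147181-82205379 on the plus strand (ENSMUSG00000022463). It was at 112, 104 and 107 CPM under GFP and at 145, 139 and 134 CPM under Ezh2-Y726D. Every Ezh2-Y726D library was above every GFP library. The mean went from 108 ± 3.96 to 139 ± 5.5 CPM, a log2 fold change of 0.36 ± 0.044 (SE), or 1.28-fold. The ratio of *Srebf2* to *Srebf1* per kilobase was 0.604, 0.632 and 0.596 in the GFP libraries and 0.822, 0.914 and 0.826 in the Ezh2-Y726D libraries, so *Srebf1* stayed the more abundant of the pair in each library. Set against *Srebf2*, *Abca1* was at 1.76, 1.88 and 2.03 per kilobase under GFP and at 0.735, 0.756 and 0.807 under Ezh2-Y726D, and thus passed from above to below it. *Mylip* to *Srebf2* ratios were 0.779, 0.856 and 0.854 against 0.466, 0.498 and 0.512.

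Counting genes by overlap, as another view of the same comparison, 4 of the 8 lay lower in every Ezh2-Y726D library than in every GFP library and 1 lay higher. Over all genes tested, 18.9% lay apart in the lower direction and 19.7% in the higher direction. With 3 libraries against 3, an exact two-sided permutation test of 1 gene cannot give a P value under 0.1.

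Levels of different genes were compared per kilobase of exon, on the CPM scale. In the GFP libraries the order from high to low was *Abca1* (28.3 ± 1.64), *Srebf1* (24.5 ± 1.45), *Abcg1* (20.1 ± 1.64), *Srebf2* (15 ± 0.552), *Mylip* (12.4 ± 0.27), *Nr1h2* (11.7 ± 0.114), *Lpcat3* (6.63 ± 0.898) and *Nr1h3* (2.68 ± 0.334). In the Ezh2-Y726D libraries it was *Srebf1* (22.7 ± 1.72), *Srebf2* (19.4 ± 0.766), *Abca1* (14.8 ± 0.228), *Abcg1* (13.5 ± 0.182), *Nr1h2* (11.5 ± 0.155), *Mylip* (9.51 ± 0.116), *Lpcat3* (5.73 ± 0.379) and *Nr1h3* (1.47 ± 0.205). In neither group did the 3 libraries of a gene overlap those of its neighbour in the order. *Abca1* went from the top of the order to below both SREBP genes, and *Mylip* and *Nr1h2* changed places.

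**Figure D2:**
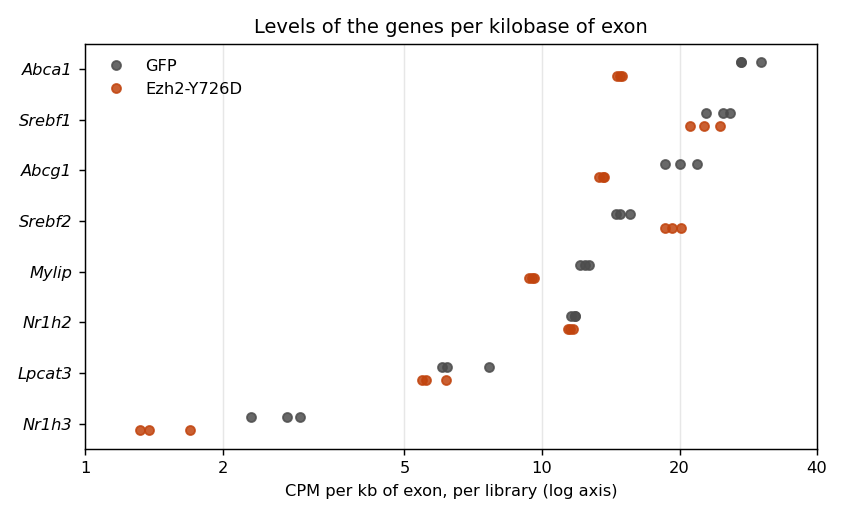
Level of each of the 8 genes in CPM per kilobase of exon on a log axis, 1 point per library, with GFP and Ezh2-Y726D libraries in separate colors. *Abca1* is the highest gene in the GFP libraries (mean 28.3) and lies under *Srebf1* and *Srebf2* in the Ezh2-Y726D libraries (mean 14.8), while the points of *Nr1h2* coincide.

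The other genes of the pathway were taken as 10 lists, each given by its counts and its median. Over all genes tested, 13.6% were called lower and 13.9% higher. Among 12 LXR partners and coregulators, 1 was called lower and the median log2 fold change was 0.01. That gene was *Rxra*, the retinoid X receptor alpha that pairs with LXR, at 51.4 CPM under GFP and 44.8 CPM under Ezh2-Y726D (log2 fold change -0.20 ± 0.059 SE, adjusted P = 0.0121). This and every adjusted P below is from edgeR, by the Benjamini-Hochberg method over all genes tested. Of 6 tested enzymes that make or remove oxysterols, 1 was called in each direction. *Cyp46a1*, the neuronal enzyme that makes 24S-hydroxycholesterol, rose from 7.40 to 10.9 CPM (adjusted P = 0.000144). *Cyp27a1*, which makes 27-hydroxycholesterol, fell from 21.0 to 17.1 CPM (adjusted P = 0.0397).

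Further LXR targets and apolipoproteins split in both directions: of 15 tested, 6 were called lower and 5 higher, with a median of 0.02 and a range of -1.40 to 0.76. All genes tested had a median of 0.00 on the same scale, with 13.6% called lower and 13.9% higher. *Pltp*, which moves phospholipid between lipoproteins, fell from 23.1 to 8.65 CPM (log2 fold change -1.40 ± 0.089, adjusted P = 1.03e-12), with 19.3% of its exon bases overlapping *Ctsa*. *Smpdl3a*, a phosphodiesterase of macrophages, fell from 18.4 to 9.59 CPM, and *Apoe*, the main lipid carrier of retina and brain, fell from 3030, 3070 and 3200 CPM to 1990, 1990 and 1970 CPM (adjusted P = 3.2e-13). Those called higher included *Scd1*, a fatty acid desaturase (11.1 to 14.3 CPM), *Lpl*, lipoprotein lipase (12 to 16.5 CPM), and *Abcg4*, a neuronal efflux transporter (29.9 to 34.5 CPM). Among 14 other ABCA and ABCG transporters tested, a list that shares the tested genes *Abca7* and *Abcg4* with the one before, 2 were called lower and 4 higher, and the median was 0.02. The 2 lower ones were *Abcg3* (2.26 to 0.931 CPM) and *Abca9* (9.98 to 8.06 CPM).

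Cholesterol synthesis genes, many of them SREBP2 targets, were called in the direction of *Srebf2* more often than against it. Of 21 tested, 13 were called higher and 1 lower, with a median log2 fold change of 0.25, where 13.9% of all genes tested were called higher. *Idi1*, an isomerase of the early isoprenoid steps, rose from 6.84 to 9.09 CPM (log2 fold change 0.43 ± 0.12, adjusted P = 0.00493), and *Fdft1*, squalene synthase, rose from 43.2 to 56.6 CPM (adjusted P = 3.46e-06), with 18.3% of its exon bases overlapping *Ctsb*. *Lbr*, a sterol reductase that is also the lamin B receptor, fell from 38.6 to 32.7 CPM. Among 8 genes that process SREBPs, 1 was called, *Insig1*, the sterol-regulated anchor of SREBPs in the endoplasmic reticulum, which rose from 67.7 to 86.7 CPM (adjusted P = 4.35e-06). Of 14 fatty acid synthesis genes, 7 were called higher and 1 lower, led by the desaturase gene *Fads1* (89.1 to 119 CPM), and 3 of the 7, *Scd1*, *Scd2* and *Fasn*, are the same genes as 3 of the 5 higher ones among the further LXR targets. No gene of the cholesterol synthesis list reached the 1.5-fold change of a DEG, so these rises were small relative to the differences in *Abca1* and *Nr1h3*.

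Of 16 genes of lipoprotein receptors and cholesterol uptake, 7 were called lower and 3 higher, with a median of -0.13. The shares over all genes tested were 13.6% lower and 13.9% higher. *Npc2* and *Lipa*, which release cholesterol from lysosomes, fell from 139 to 86.6 CPM (log2 fold change -0.68 ± 0.041) and from 39.8 to 25.3 CPM (-0.64 ± 0.06). *Cd36*, a scavenger receptor, fell from 4.73 to 3.40 CPM (-0.53 ± 0.15). Those called higher included *Lrp8*, a receptor for ApoE and reelin (66.1 to 83.2 CPM), and *Stard4*, a sterol carrier (15.6 to 18.2 CPM). Of 5 genes of cholesterol esterification, 1 was called, *Soat1*, which makes cholesteryl esters and fell from 72.6 to 46.8 CPM (adjusted P = 5.02e-10). Among 8 lysophospholipid acyltransferases, the relatives of *Lpcat3*, 1 was called lower (*Lpcat2*, 47.8 to 35.8 CPM) and 3 higher, with *Lpcat4* the largest at 10.3 to 13.8 CPM.

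**Figure D3:**
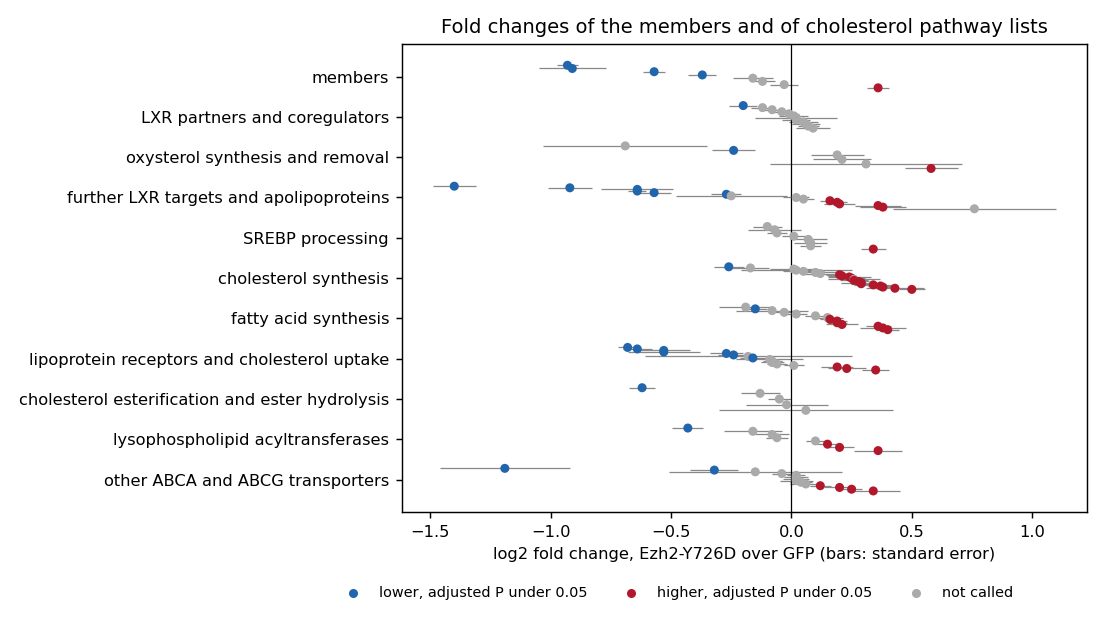
Log2 fold change of Ezh2-Y726D over GFP for each of the 8 genes (top row, named members) and for every tested gene of the 10 pathway lists, with bars of 1 SE; blue and red mark adjusted P under 0.05 in the lower and higher direction, and gray marks no call. The cholesterol synthesis row lies mostly right of 0 (13 of 21 called higher), while the row of further LXR targets spreads from -1.40 to 0.76.

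Cell type markers moved with these genes, and their part in the result was not tested. Their calls stand beside 13.6% lower and 13.9% higher over all genes tested. Among the immune lists, 7 of 10 markers of activated phagocytes were called lower and none higher, and their summed level was 340 to 386 CPM in the GFP libraries and 135 to 145 CPM in the Ezh2-Y726D libraries. Of 7 macrophage markers tested, 6 were called lower, with sums of 173 to 182 and 67.0 to 76.2 CPM. All 7 T cell markers were called lower (103 to 109 and 59.8 to 65.0 CPM). Of 4 B cell markers, 2 were called lower (3.98 to 5.16 and 2.07 to 3.38 CPM). Sums are over all markers of a list, tested or not. Of the neutrophil list only *Csf3r* was tested, and it was called lower (means of 19.2 and 11.8 CPM). *S100a8*, *S100a9* and *Retnlg* of that list were near 0 and not tested. Their means were 0.0787, 0.0117 and 0.318 CPM under GFP, and 0.0238, 0.0414 and 0.0251 CPM under Ezh2-Y726D. Homeostatic microglia were divided, with 4 of 9 markers lower and 2 higher (407 to 457 and 320 to 377 CPM). No list had a marker at 0 in all libraries. *Abca1* and *Nr1h3* had log2 fold changes of -0.93 and -0.91. List medians were -1.57 for macrophages, -0.83 for activated phagocytes, -0.82 for B cells, -0.74 for T cells and -0.14 for homeostatic microglia. *Csf3r*, the only tested marker of the neutrophil list, was at -0.68.

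Müller glia, which make much of the retina's ApoE, had sums of 6620 to 6920 CPM under GFP and 6620 to 6910 CPM under Ezh2-Y726D, with 1 of 8 markers called lower and 3 higher. The RGC list had 2 of 12 called in each direction (515 to 531 and 488 to 526 CPM). All 7 amacrine markers were called higher (662 to 741 and 1110 to 1150 CPM), and their median log2 fold change, 0.61, was larger than that of *Srebf2*, 0.36. Rods had 3 of 7 higher and none lower (5600 to 5770 and 6150 to 6350 CPM). Bipolar cells had 5 of 6 lower and 1 higher (960 to 977 and 791 to 815 CPM), and all 6 cone markers were called lower (397 to 419 and 260 to 275 CPM). Pericytes had 4 of 5 lower (204 to 221 and 159 to 172 CPM) and astrocytes 1 of 2 tested lower (283 to 320 and 237 to 281 CPM). Endothelial cells had 2 of 6 lower (953 to 1010 and 898 to 962 CPM). Most of that endothelial sum came from *Kdr* (means of 763 and 696 CPM) and *Flt1* (200 and 214 CPM). *Cldn5*, *Pecam1*, *Cdh5* and *Tek* had means of 4.14, 8.24, 3.02 and 2.86 CPM under GFP, and 4.62, 6.77, 2.26 and 3.48 CPM under Ezh2-Y726D. Of the 2 retinal pigment epithelium markers tested, neither was called (2.25 to 2.99 and 2.27 to 2.74 CPM).

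**Figure D4:**
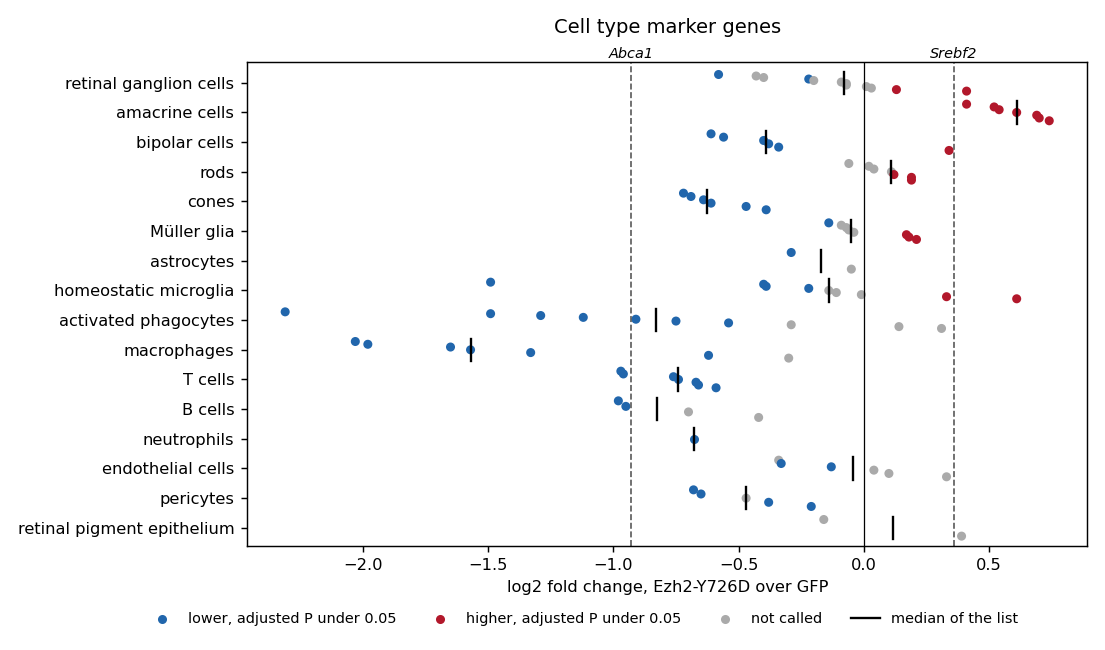
Log2 fold change of Ezh2-Y726D over GFP for each tested marker of 16 cell type lists, with a vertical tick at the median of each list and dashed lines at the values of *Abca1* (-0.93) and *Srebf2* (0.36). The macrophage, activated phagocyte, T cell and B cell lists lie left of 0 near or beyond *Abca1*, and the amacrine list lies to the right of *Srebf2*.

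Genes whose profile over the 6 libraries was most like that of *Abca1* were sought among 12251 other genes with a mean of at least 5 CPM, by the root mean square difference of log2(CPM + 0.5) values centred on each gene's mean. The 5 nearest were *Gsg1* (0.036), *Was* (0.039), *Il16* (0.043), *Lgals9* (0.044) and *Gimap3* (0.045). Their log2 fold changes ran from -1.0 for *Was* to -0.87 for *Lgals9*, around the -0.93 of *Abca1*. *Gsg1* is named for its expression in germ cells, *Was* encodes the Wiskott-Aldrich protein of blood cells, *Il16* a lymphocyte cytokine, *Lgals9* a galectin and *Gimap3* a lymphocyte GTPase. For *Srebf2* the nearest were *Cacna1i* (0.017), *Rap1gap2* (0.024), *Ncs1* (0.025) and *Rims3* (0.026), with log2 fold changes of 0.32 to 0.36. *Cacna1i* encodes a T-type calcium channel, *Ncs1* a neuronal calcium sensor and *Rims3* a presynaptic protein. These distances rest on 6 libraries in 2 groups, and many genes share such a step between groups.

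The calls of *Abca1*, *Nr1h3*, *Abcg1*, *Mylip* and *Srebf2* were the same in every fit that left out 1 library. Over these fits the log2 fold change was -0.95 to -0.88 for *Abca1*, -0.61 to -0.52 for *Abcg1*, -1.04 to -0.77 for *Nr1h3*, -0.40 to -0.36 for *Mylip* and 0.33 to 0.40 for *Srebf2*. *Srebf1* was called lower in the fit without GFP library 2 (-0.16) and in the fit without Ezh2-Y726D library 1 (-0.18). Its value was -0.07, without a call, both without GFP library 1 and without Ezh2-Y726D library 2. *Lpcat3* was called in none of these fits and ran from -0.27 without GFP library 1 to -0.09 without GFP library 3, and *Nr1h2* ran from -0.04 to -0.02. Without GFP libraries 2 and 3, the 2 with the high share of the rRNA gene, 5 of the 8 genes were called lower (*Srebf1* added) and 1 higher, with *Abca1* at -0.88, along with 5 further LXR targets lower and 9 cholesterol synthesis genes higher. That fit assumes that the lone GFP library varied like the others. Scaling by library totals, in which the rRNA gene counts, moved the median of the log2 fold changes over all genes to 0.49. Under that scaling none of the 8 genes was called, *Abca1* was at -0.42, *Nr1h3* at -0.41, *Abcg1* at -0.06 and *Srebf2* at 0.86. Taken from that median, the differences were -0.91 for *Abca1*, -0.90 for *Nr1h3*, -0.56 for *Abcg1*, -0.37 for *Mylip* and 0.37 for *Srebf2*.

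**Figure D5:**
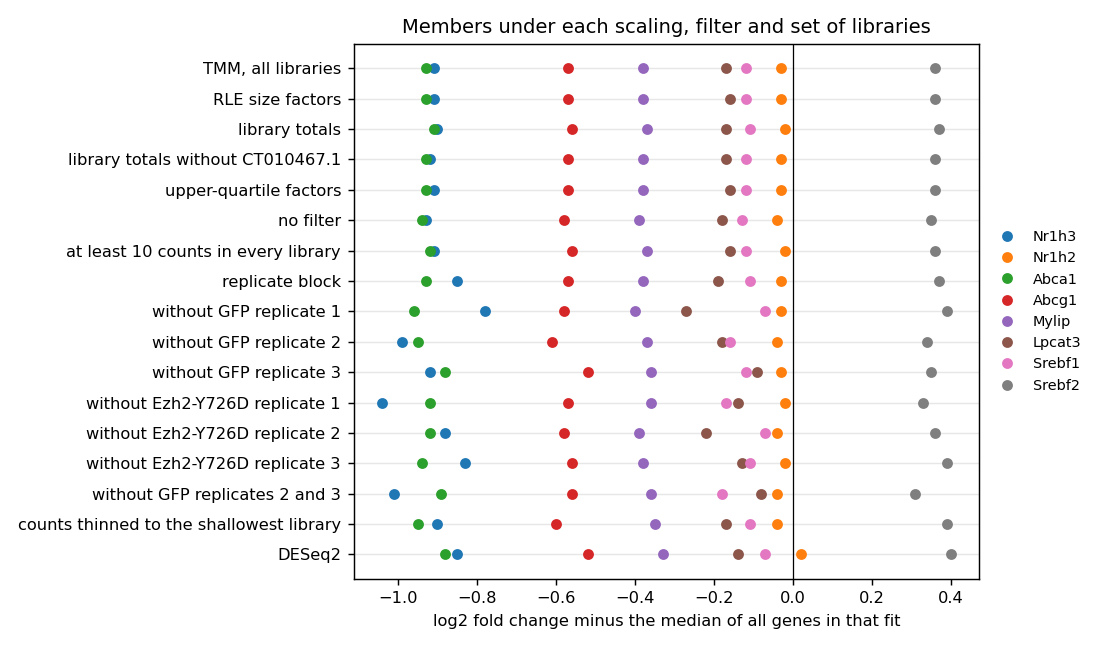
Log2 fold change of each of the 8 genes, Ezh2-Y726D over GFP, minus the median over all genes of the same fit (horizontal axis), with 1 row per scaling, filter, test or set of libraries and 1 color per gene. *Abca1* lies between -0.96 and -0.88 and *Srebf2* between 0.31 and 0.40 in all rows; before the median is taken off, scaling by library totals turns the sign of *Nr1h2* (0.47), *Mylip* (0.13), *Lpcat3* (0.32) and *Srebf1* (0.38).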

How the data were processed

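RNA-Seq was done on total RNA with a stranded kit in 3 GFP and 3 Ezh2-Y726D libraries, and the table that the authors deposited holds raw counts, 1 whole number per gene and library. The submitters' processing notes name STAR 2.7.0d and GRCm38, and the counting tool is not given in the sources used here. Gene symbols came from a gene name table (32325 of 32371 identifiers), and coordinates, exon lengths (the union of annotated exons) and overlaps came from GENCODE vM21 on GRCm38 (32342 identifiers).

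Counts were tested with edgeR 4.0.16 in R 4.3.3 (TMM, filterByExpr with a minimum of 10 counts and 15 in total, quasi-likelihood test, Benjamini-Hochberg over 18138 genes). The genes, the pathway and marker lists, and the rule for named genes were chosen with earlier results of these data known. That rule takes the 8 genes, from each pathway list at most the 3 called genes with the largest fold change in each direction and a mean of at least 1 CPM, the 5 nearest profiles of *Abca1* and *Srebf2*, and *Ezh2*. Some further items are not reported here. Libraries of a group differed by more than counting noise, so none was counted as a duplicate. Precision is limited by GFP libraries 2 and 3, the shallowest. Alternatives were RLE factors, upper-quartile factors, library totals with and without CT010467.1, other filters, thinned counts, DESeq2 1.42.0, a replicate block, other thresholds and fits without 1 or 2 libraries.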

Additional observations from a re-analysis of the deposited data

How the results depend on the processing

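The counts were 4 genes lower and 1 higher of the 8, 6 further LXR targets lower and 13 cholesterol synthesis genes higher. With library totals in place of TMM they became 0, 0, 0 and 0 in edgeR's test. At an unadjusted P under 0.05 that scaling gave 0, 1, 1 and 9, and DESeq2 with its own size factors gave 4, 1, 6 and 10. Over all genes, library totals gave 19 lower and 46 higher calls, 29.2% of them lower, against 49.4% with TMM. The signs that turned were those of *Nr1h2* (0.47), *Mylip* (0.13), *Lpcat3* (0.32) and *Srebf1* (0.38), and the median of all genes moved to 0.49. The fold change over 1.5 in addition left 2 genes lower and 0 higher of the 8, and 0 cholesterol synthesis genes, since fewer genes pass a second threshold; without that threshold the counts are those given first. Leaving out 1 library at a time gave 4 to 5 genes lower, 1 higher (in every fit), 6 further LXR targets lower (in every fit) and 11 to 12 cholesterol synthesis genes higher.

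Same-numbered libraries of the groups did not deviate together (correlations of 0.0629, 0.032 and 0.0212, though each library correlated best with its own number), so the numbers were not taken as pairs. With the replicate number as a block, 5 genes were lower, 1 higher, 6 LXR targets lower and 13 cholesterol synthesis genes higher. The added call was *Srebf1* (-0.11), and over all genes there were 2547 lower and 2675 higher calls against 2463 and 2525. *Srebf1* was also called with library totals without CT010467.1 (-0.14), without GFP library 2 (-0.16), without Ezh2-Y726D library 1 (-0.18) and without GFP libraries 2 and 3 together (-0.18), and the cause was not tested. DESeq2 made 1648 lower and 1792 higher calls over all genes. In the other fits, the calls of the 8 genes were those given first. Depth limits *Nr1h3* most, at 42 to 212 reads per library.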
